A study of Homo sapiens with 6 samples.

Results

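FBXO17 is a human gene on the minus strand of chromosome 19, at chr19:39432041-39466380 in the assembly hg19, an interval of 34340 nt. It encodes an F-box protein. Its peaks were chosen by position, as every region of the DHX9-mAb and DHX9-Rb peak lists that overlapped this interval on the minus strand. The DHX9-mAb list held 46 such peaks of 6831, and the DHX9-Rb list held 45 of 21618, so 91 of 28449 peak regions are described. The gene was picked for its many and nearly equal peak numbers in these lists, so all values below are descriptions with no test.

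The peaks come from FLASH of DHX9 in HEK293 cells, an established human line from embryonic kidney. FLASH is a form of cross-linking and immunoprecipitation: ultraviolet light joins a protein to the RNA it touches, and the RNA held by the captured protein is sequenced. The labels give 3 groups of HEK293 cells with 2 biological replicates each, named by the antibody on the beads: DHX9-mAb, DHX9-Rb and the control immunoglobulin IgG-Rb. No other treatment is named. Each DHX9 antibody has 1 peak list that stands for both of its replicates, and no IgG-Rb values were used here, so no replicate error and no control level can stand beside a peak. The lists give a first base, a last base and a strand, with no height or p-value, and the read depth is unknown. The labels say that control and DHX9 material was mixed before reverse transcription, so DHX9 and control samples were not handled wholly apart. Whether material of the 2 DHX9 antibodies was mixed with each other was not determined here.

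F-box proteins are the subunits of SCF ubiquitin ligases that bind the substrate, and the F-box itself is the part that docks on the SKP1 subunit. FBXO17 belongs to a small branch of this family, together with FBXO2, FBXO6, FBXO27 and FBXO44, whose members share a second conserved region known in some of them for binding sugar chains on glycoproteins. DHX9, or RNA helicase A, unwinds double-stranded RNA, including the RNA that forms where a pair of Alu repeats in opposite orientation lie in the same transcript. The mRNA strand of FBXO17 is read from the high coordinate to the low one. Distances below are therefore counted from the 5′ edge of the interval, at position 39466380.

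Both antibodies marked the gene along most of its length, on the transcribed strand only. Neither list had a plus-strand peak in the interval (0 against 46 minus-strand peaks with DHX9-mAb, and 0 against 45 with DHX9-Rb). The peaks covered 12412 nt with DHX9-mAb, or 36.1% of the interval, and 17124 nt with DHX9-Rb, or 49.9%. Together they covered 19937 nt, or 58.1%. The ratio of peak numbers, DHX9-mAb over DHX9-Rb, was 1.02 in FBXO17 and 0.316 over the whole lists. In covered bases the ratio was 0.725 in FBXO17, and the ratio of summed peak widths was 0.298 over the whole lists. The gene held 0.673% of all DHX9-mAb peaks and 0.208% of all DHX9-Rb peaks.

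**Figure D1:**
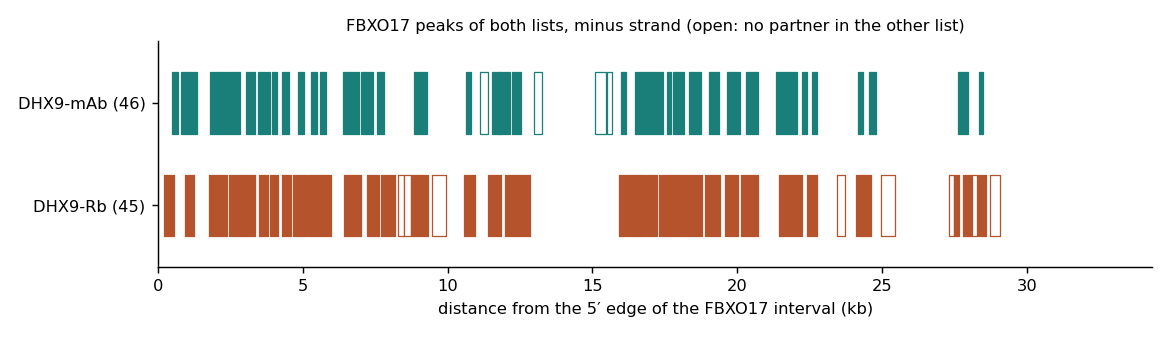
Peaks of FBXO17 drawn to scale by distance from the 5′ edge of the interval (kb), DHX9-mAb above (46 peaks) and DHX9-Rb below (45 peaks); open boxes are peaks that no peak of the other list overlaps. Both lists begin within 488 nt of the 5′ edge and leave the last 5257 nt of the interval free of peaks.

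The covered sequence is longer than the exons that an annotation lists for the gene. GENCODE release 29, which is on the assembly GRCh38, gives FBXO17 7 transcripts whose exons together span 4960 nt, or 14.4% of its gene length there. That gene length was 34510 nt in GENCODE and 34342 nt in RefSeq, close to the interval used here. The DHX9-mAb peaks covered 7452 nt more than this exonic total and the DHX9-Rb peaks 12164 nt more. At least that many covered bases of each list would thus lie outside the annotated exons of FBXO17, if exon lengths are alike in both assemblies. The bound is on bases, since a peak may lie partly in an exon. Positions were not converted between assemblies, so no single peak was placed in an exon, an intron or an untranslated region. For the same reason no sequence of a peak is printed.

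The first peaks lay near the 5′ edge, and the last part of the gene carried none. The first DHX9-mAb peak ran from 39465681 to 39465892, 488 nt from the 5′ edge, and the first DHX9-Rb peak from 39465831 to 39466183, 197 nt from it. The last DHX9-mAb peak ran from 39437884 to 39438025. The last DHX9-Rb peak ran from 39437298 to 39437644, and beyond it lay 5257 nt of the interval without a peak of either list. No peak crossed an edge of the interval.

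Peaks of either list that lay less than 1 kb apart formed 3 groups along the gene. The first group, nearest the 5′ edge, ran from 39453138 to 39466183 (13046 nt) and held 27 DHX9-mAb and 24 DHX9-Rb peaks. They covered 51.3% of it with DHX9-mAb and 69.1% with DHX9-Rb. The middle group ran from 39440949 to 39451297 (10349 nt) and held 17 DHX9-mAb and 15 DHX9-Rb peaks. They covered 50.4% of it with DHX9-mAb and 64.5% with DHX9-Rb. The group farthest from the 5′ edge, from 39437298 to 39439049 (1752 nt), had 2 DHX9-mAb and 6 DHX9-Rb peaks, covering 28.7% of it with DHX9-mAb and 82.3% with DHX9-Rb. The near equality of the peak numbers therefore held in the first and the middle group, and the last group went the other way. Between the groups, 1840 nt (39451298 to 39453137) and 1899 nt (39439050 to 39440948) were free of both antibodies.

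Cut into 10 segments of 3434 nt, the gene carried more peaks of both lists toward its 5′ edge than toward its 3′ edge. The lean was stronger with DHX9-mAb. The first 7 segments held 42 DHX9-mAb peaks and 36 DHX9-Rb peaks by their midpoints. The last 3 segments held 4 DHX9-mAb and 9 DHX9-Rb peaks, and the segment next to the 3′ edge had 0 of each. DHX9-Rb covered more bases than DHX9-mAb in 8 of the 9 segments with peaks. The exception was the segment from 13736 to 17169 nt, where DHX9-mAb covered 40.6% and DHX9-Rb 34.3%. The segment with the highest coverage for both antibodies was the one from 17170 to 20603 nt, with 6 peaks each, covering 65.8% of it with DHX9-mAb and 86.6% with DHX9-Rb.

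**Figure D2:**
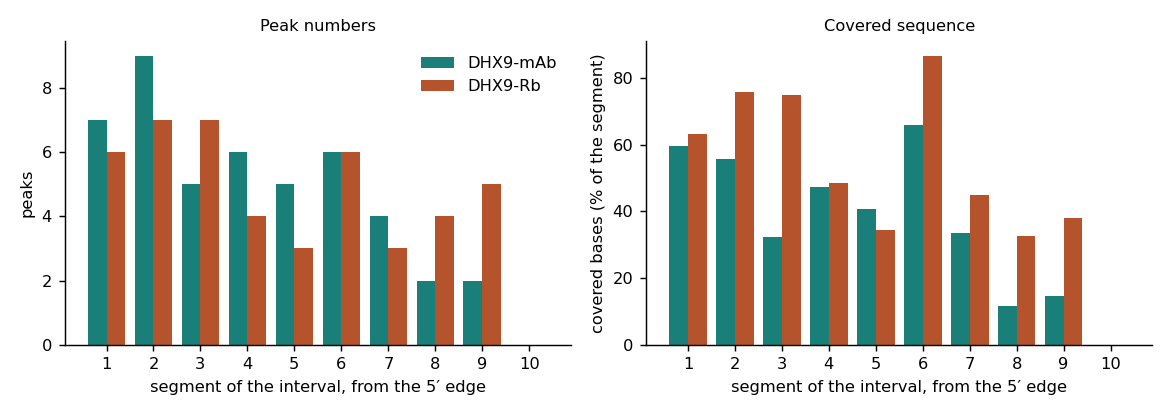
Number of peaks by midpoint (left) and share of bases covered in percent (right) in each of 10 segments of the FBXO17 interval from the 5′ edge, DHX9-mAb left of DHX9-Rb in each pair of bars; single values without replicates. DHX9-mAb has 2 peaks in each of segments 8 and 9, where DHX9-Rb has 4 and 5.

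FBXO17 peaks were wide in both lists, more so with DHX9-Rb. DHX9-mAb peaks had a median width of 259 nt (interquartile range 191.8 to 348) and ran between 112 and 598 nt. DHX9-Rb peaks had a median of 375 nt (291 to 456) and ran between 142 and 792 nt. Over the whole lists the medians were 191 nt for DHX9-mAb and 201 nt for DHX9-Rb. Of the whole lists, 75.6% of the DHX9-mAb peaks and 90.2% of the DHX9-Rb peaks were narrower than the median of their list in FBXO17. Peaks of 300 nt or more made up 15 of the 46 DHX9-mAb peaks, or 32.6%, against 15.4% of that whole list. With DHX9-Rb they made up 31 of 45, or 68.9%, against 19.4%. At 400 nt or more there were 5 DHX9-mAb peaks (10.9%, against 6.05% of the list) and 18 DHX9-Rb peaks (40.0%, against 7.68%).

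The extremes of width lay apart in the gene. The widest DHX9-mAb peak, 598 nt from 39448960 to 39449557, met 3 DHX9-Rb peaks. The narrowest, 112 nt from 39462508 to 39462619, met 2. The widest DHX9-Rb peak, 792 nt from 39444142 to 39444933, met 2 DHX9-mAb peaks. The narrowest DHX9-Rb peak, 142 nt from 39438908 to 39439049, lay in the last group and met none.

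**Figure D3:**
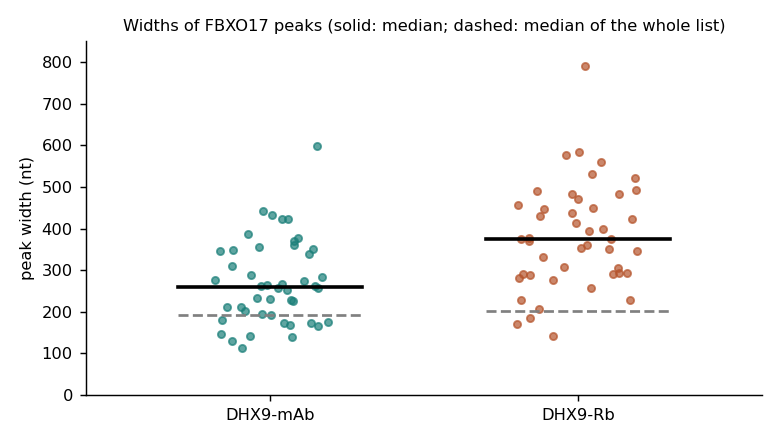
Width in nt of each FBXO17 peak, DHX9-mAb on the left (46 points) and DHX9-Rb on the right (45 points); the solid line is their median and the dashed line the median of the whole list. The medians are 259 nt for DHX9-mAb and 375 nt for DHX9-Rb, both above the dashed lines at 191 and 201 nt.

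Peaks followed one another at nearly the same pitch in both lists, with shorter free stretches between the wider DHX9-Rb peaks. Midpoints of neighbours were a median of 465 nt apart in the DHX9-mAb list and 471 nt apart in the DHX9-Rb list. From first to last peak, the DHX9-mAb list spanned 28009 nt with its 46 peaks, and the DHX9-Rb list 28886 nt with its 45. The similar pitch is therefore tied to the peak numbers for which the gene was picked. At a similar pitch, wider peaks leave less free sequence between them, so neither point is a finding of its own. The median free stretch was 172 nt with DHX9-mAb (interquartile range 63 to 307) and 82.5 nt with DHX9-Rb (17.75 to 239.8). Free stretches under 100 nt made up 18 of 45 with DHX9-mAb and 23 of 44 with DHX9-Rb. Under 25 nt there were 7 with DHX9-mAb, counting 1 pair of peaks that overlapped each other by 30 nt, and 13 with DHX9-Rb, the shortest being 1 nt. The longest was 2831 nt for DHX9-mAb and 3090 nt for DHX9-Rb. Where such close neighbours are joined, the peak numbers fall unequally: with peaks under 50 nt apart merged, 35 DHX9-mAb and 30 DHX9-Rb regions remained, a ratio of 1.17. How the peak caller divided a continuous signal was not tested.

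Most peaks of either antibody met a peak of the other. In the DHX9-mAb list, 42 of the 46 FBXO17 peaks shared at least 1 nt with a DHX9-Rb peak, or 91.3% (95% Wilson interval 79.7 to 96.6, for counting error only), against 88.0% of the whole DHX9-mAb list. In the DHX9-Rb list, 37 of 45 met a DHX9-mAb peak, or 82.2% (68.7 to 90.7), against 28.6% of the whole DHX9-Rb list. The DHX9-Rb share is tied to the peak numbers for which the gene was picked: with 42 DHX9-mAb peaks matched and 45 DHX9-Rb peaks in all, little room was left for a low share, just as a ratio of 0.316 over the whole lists leaves little room for a high one. Its distance from 28.6% is therefore no finding of its own. Neighbouring peaks of a pooled list are not independent, so the intervals may be too narrow. Both shares also stand beside a DHX9-Rb coverage of 49.9% and a DHX9-mAb coverage of 36.1% of the interval, and the part that coverage has in them was not tested. In bases, 9599 nt were covered by both antibodies. They made up 77.3% of the bases under DHX9-mAb peaks and 56.1% of those under DHX9-Rb peaks, and 48.1% of the 19937 nt under peaks of either list.

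The match was not 1 to 1, although the numbers were nearly equal. Of the DHX9-mAb peaks, 8 met 2 or more DHX9-Rb peaks, and of the DHX9-Rb peaks, 13 met 2 or more DHX9-mAb peaks. When overlap of at least 50% of both peaks was asked for, 22 DHX9-mAb peaks (47.8%, against 62.1% of the whole list) and 22 DHX9-Rb peaks (48.9%, against 19.6%) had a partner.

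Pairs in which each peak was the other's largest overlap numbered 34. The distance between their midpoints had a median of 51.25 nt, and it was at most 50 nt in 17 pairs and at most 100 nt in 27. The smallest, 2.5 nt, belonged to the DHX9-mAb peak from 39444319 to 39444761 inside the widest DHX9-Rb peak. The largest, 250.5 nt, belonged to the DHX9-mAb peak from 39458576 to 39458808 and the DHX9-Rb peak from 39458197 to 39458686. The DHX9-mAb peak was the narrower in 29 of the 34 pairs, and it lay wholly inside its DHX9-Rb partner in 16. The reverse was seen in 2 pairs. The DHX9-mAb midpoint lay toward the 3′ edge of its partner's in 21 pairs and toward the 5′ edge in 13, with a median of 16.25 nt toward the 3′ edge.

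The peaks without a partner were few. The 4 of the DHX9-mAb list lay on both sides of the free stretch between the first and the middle group, and on the first group's side 3 peaks with partners stood between the pair. A pair of them, from 39453138 to 39453402 and from 39454995 to 39455250, lay toward the low-coordinate end of the first group, 134 and 20 nt from the nearest DHX9-Rb peak. The others, from 39450927 to 39451297 and from 39450712 to 39450891, opened the middle group, 480 and 265 nt from it. The 8 lone DHX9-Rb peaks lay in all 3 groups. In the first group they ran from 39457903 to 39458109, from 39457642 to 39457899 and from 39456441 to 39456923. In the middle group they ran from 39442659 to 39442935 and from 39440949 to 39441404. The last group held the other 3, from 39438908 to 39439049, from 39438085 to 39438270 and from 39437298 to 39437644.

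Peaks were fewer per length around the gene than in it. Within 100 kb beyond the 5′ edge there was no peak on either strand (0 with DHX9-mAb and 0 with DHX9-Rb). The next peak on that side, on either strand, was 486513 nt away with DHX9-mAb and 333396 nt away with DHX9-Rb. The next gene on that side in GENCODE release 29 is FBXO27, another F-box gene of the same branch on the same strand. Its position in hg19 was not used here. Within 100 kb beyond the 3′ edge there were 11 DHX9-mAb and 12 DHX9-Rb peaks, all on the minus strand. That is 1.10 peaks per 10 kb with DHX9-mAb and 1.20 with DHX9-Rb, against 13.4 and 13.1 in FBXO17. They covered 3.15% of the 100 kb with DHX9-mAb and 3.96% with DHX9-Rb. Chromosome 19 as a whole held 1011 DHX9-mAb and 2905 DHX9-Rb peaks on both strands. No density per 10 kb was computed for it, so the 3′ side is low only against the gene.

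**Figure D4:**
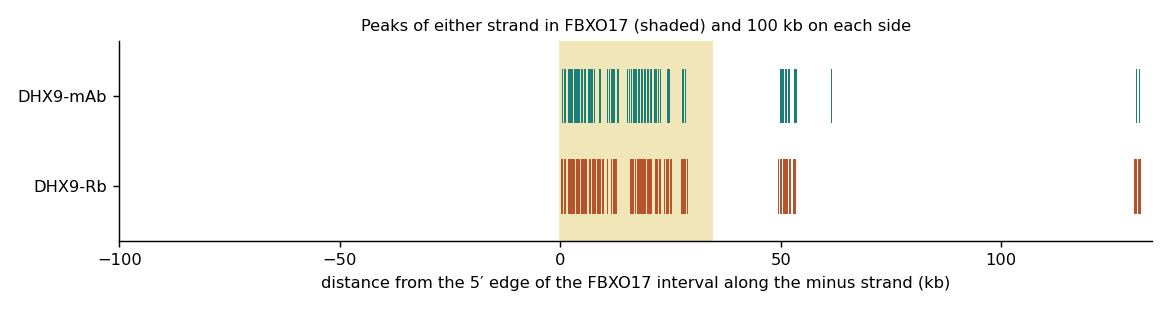
Peaks of either strand in FBXO17 (shaded) and in 100 kb on each side, by distance in kb from the 5′ edge of the interval along the minus strand, DHX9-mAb above DHX9-Rb. The 5′ side on the left has no peak, and the 3′ side has 11 DHX9-mAb and 12 DHX9-Rb peaks in small groups, the nearest about 15 kb beyond the gene.

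The flanking peaks lay in 3 places. The nearest group ran from 39412619 to 39416955, beginning 15085 nt beyond the 3′ edge, with 8 DHX9-mAb and 8 DHX9-Rb peaks. Of these, 8 DHX9-mAb and 7 DHX9-Rb peaks met a peak of the other list. Their median widths were 296 nt for DHX9-mAb and 328 nt for DHX9-Rb. Equal numbers and wide peaks were thus also seen in this smaller group outside the gene. A lone DHX9-mAb peak from 39404739 to 39404990 followed, and at the far end, from 39334640 to 39336309, 2 DHX9-mAb and 4 DHX9-Rb peaks lay together.

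On the 3′ side, GENCODE release 29 lists the long non-coding RNA gene ERVK9-11 next to FBXO17. Farther out come MRPS12 on the plus strand and SARS2, the gene of the mitochondrial seryl-tRNA synthetase, on the minus strand. It also lists a minus-strand protein-coding gene, AC011455.2, that overlaps both SARS2 and FBXO17. Peaks in the part that such a transcript shares with FBXO17 cannot be told apart by strand, and none was assigned to it. Whether the flanking minus-strand peaks lie in AC011455.2 was not determined either. Flanking groups near the gene may therefore not be separate from a transcript that overlaps FBXO17. Beyond SARS2 the release lists CCER2 and SIRT2 on the minus strand and NFKBIB on the plus strand. The far group, 95731 nt beyond the 3′ edge, was not assigned to any gene.

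For comparison, both lists were divided into same-strand stretches of the gene's length, counted from the start of each chromosome. The gene was picked for its numbers and its interval is fitted to it, while these stretches can cut a gene in pieces, so the values only describe. Leaving out the stretches that overlap FBXO17, 817 had at least 10 peaks in both lists together, and 26 of them (3.18%) had at least as many DHX9-mAb as DHX9-Rb peaks. The median ratio of DHX9-mAb to DHX9-Rb peaks was 0.35. None held 46 DHX9-mAb peaks, the highest number being 33, whereas 7 held 45 or more DHX9-Rb peaks, up to 63. These are numbers per stretch, and the mitochondrial chromosome is shorter than a stretch. Among the 151 stretches with at least 20 DHX9-Rb peaks, 1 had at least as many DHX9-mAb peaks, with 31 DHX9-mAb and 20 DHX9-Rb peaks. That cutoff is on DHX9-Rb peaks alone, so it favours stretches with more DHX9-Rb than DHX9-mAb peaks.

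**Figure D5:**
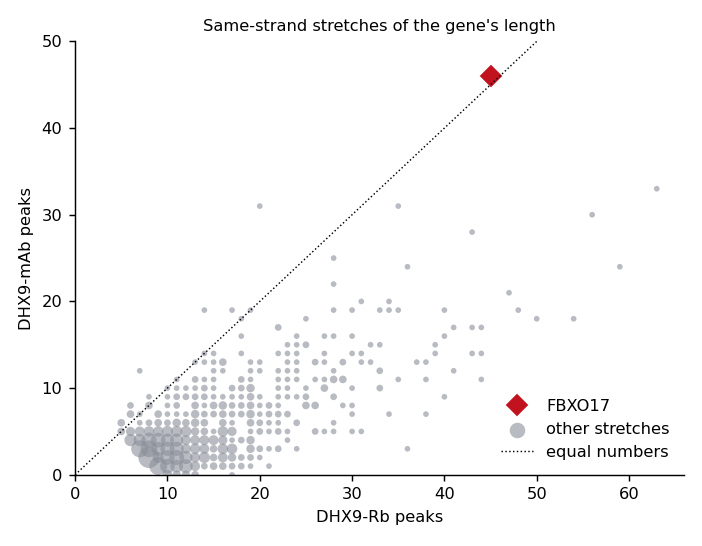
DHX9-mAb peaks (vertical axis) against DHX9-Rb peaks (horizontal axis) in same-strand stretches of the gene's length with at least 10 peaks (817 stretches; larger dots stand for more stretches), with FBXO17 as a diamond and a dotted line at equal numbers. FBXO17 stands at 46 and 45 peaks, and most other stretches lie below the line.

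In the same 151 stretches the coverage and the widths compared as follows. Its DHX9-mAb coverage of 36.1% and its DHX9-Rb coverage of 49.9% lay above those of the 150 nuclear ones, whose highest values were 30.3% for DHX9-mAb and 48.5% for DHX9-Rb. The plus strand of the mitochondrial chromosome, which is shorter than a stretch and was measured up to its last peak at base 16565, was higher, at 55.0% for DHX9-mAb and 64.5% for DHX9-Rb. Its median DHX9-Rb width of 375 nt was reached in 1 stretch, and its median DHX9-mAb width of 259 nt in 13. The FBXO17 share of DHX9-mAb peaks that met a DHX9-Rb peak, 91.3%, was reached in 111. Its share of DHX9-Rb peaks that met a DHX9-mAb peak, 82.2%, was reached in 2, with a median of 37.9%. The mitochondrial plus strand was 1 of them, at 85.7%. That share is tied to the peak numbers for which the gene was picked. The ratio of median widths, DHX9-mAb over DHX9-Rb, was 0.691 in FBXO17 and as high or higher in 146 stretches, with a median of 0.906. In covered bases the ratio was 0.725 in FBXO17. It was as high or higher in 3 stretches, up to 1.42, with a median of 0.347.

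The 3 stretches most like FBXO17 in both peak numbers, by the distance of their log2 numbers, had fewer DHX9-mAb peaks than the gene. The nearest was the plus strand of the mitochondrial chromosome, with 31 DHX9-mAb and 35 DHX9-Rb peaks (distance 0.675). Those peaks lay within 16565 nt, against 34340 nt for the FBXO17 interval. Per length, the mitochondrial strand was thus the richer in peaks of both lists. Next came a plus-strand stretch of chromosome 1 from 151164681 to 151199020, where 33 DHX9-mAb and 63 DHX9-Rb peaks lay (0.682). A minus-strand stretch of chromosome 1 from 21462501 to 21496840 followed and held 30 DHX9-mAb and 56 DHX9-Rb peaks (0.693). Median widths were 201, 209 and 194 nt with DHX9-mAb and 261, 226 and 217 nt with DHX9-Rb in these 3 stretches, below the 259 nt and 375 nt of FBXO17.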

How the data were processed

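DHX9 FLASH peak regions of HEK293 cells were analysed for 1 gene. Per the submitters' processing notes, Bowtie2 2.2.6 and the assembly hg19 were used. The caller was PEAKachu, as the second column of the deposited files says. Not given in the sources used here are its settings, its control, how it combined replicates and how reads that map to several places were treated. Such choices could change which peaks were called and where one ends. The authors deposited positions and strands only (other values, such as a score, were given in 0 lines), so read depth is unknown.

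Peaks overlapping the interval by at least 1 nt on the minus strand were taken. Widths count both end bases. A free stretch is the number of bases between neighbouring peaks. Shared peaks have at least 1 nt in common on 1 strand. Intervals on shares are 95% Wilson intervals. Stretches took peaks by midpoint. The functions were checked on simulated peaks. The text names FBXO17, its annotated neighbours, end, extreme and partnerless peaks, extreme pairs and the 3 most similar stretches. The gene and all measures were chosen with earlier results of these data known. The grouping into 7 and 3 segments, the AC011455.2 overlap, and the comparison of the 151 stretches with at least 20 DHX9-Rb peaks, were added after the values were seen. Scripts ran under Python 3.11.15 with pandas 2.3.3, NumPy 2.4.6, SciPy 1.17.1 for the intervals and matplotlib 3.10.9 for the plots.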

Additional observations from a re-analysis of the deposited data

How the results depend on the processing

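Of 26 values recomputed under alternatives for 13 results, 24 stayed within 1.5 times the reported number or within its 95% interval. The exceptions were the shares of FBXO17 peaks that met a peak of the other list. Under overlap of at least 50% of both peaks they were 47.8% with DHX9-mAb and 48.9% with DHX9-Rb, in place of 91.3% and 82.2%. Over the whole lists the stricter rule gave 62.1% in place of 88.0% with DHX9-mAb, and 19.6% in place of 28.6% with DHX9-Rb. Why the shares fell further in FBXO17 was not tested. Some DHX9-Rb values passed only at the 1.5-fold limit itself. These were the FBXO17 peaks after merging, 30 in place of 45, and the 3′-side peaks within 50 kb, 8 in place of 12. Many of the 26 values could not move. No peak crossed an edge of the interval, and the nearest peak outside it lay 15085 nt away. Taking peaks by midpoint or extending the interval by 1 kb therefore had to give the same numbers. With the nearest peak on the 5′ side 333396 nt away, flanks of 50 and 200 kb there had to hold 0. On the 3′ side, raw peak numbers were compared over unlike lengths. They were 9, 11 and 12 with DHX9-mAb in 50, 100 and 200 kb, and 8, 12 and 14 with DHX9-Rb. Per length they fell as the flank grew, so 1.10 and 1.20 peaks per 10 kb hold for 100 kb only. The ratio of peak numbers after merging, 1.17 against 1.02, was held to an interval that treats neighbouring peaks as independent. Leaving out a replicate was not possible, since each list combines both. No paired analysis was possible because the lists do not separate the replicates and no result comes from a test. With no read depth and no control values, the strength of a peak and its excess over IgG-Rb are not known here.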
